A study of Mus musculus with 44 samples.

Results

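Distal chromosome 5 of the mouse is taken here as the segment from 110 Mb to the chromosome end at 151.83 Mb, leaving out 146.53 to 147.35 Mb, on the mm10 build. Its members were the CTCF peaks whose summit lay in that segment, chosen by position alone, and they numbered 1907 of the 44241 peaks listed for wild-type (WT) cells and 2488 of the 59698 peaks listed for Setdb1 knockout (KO) cells. The cells were TT2 mouse embryonic stem cells (ESCs), a line from a C57BL/6 by CBA cross. The methods name clone 33#6 for the WT cells. Conditional deletion of Setdb1 was induced with 800 nM 4-hydroxytamoxifen over 4 days, and those cells were collected on day 6. Treatment of the WT cells with the drug is not given in the sources used here, so its part in a difference and that of the deletion cannot be told apart. The lists hold no measure of Setdb1 itself and do not check its deletion. One CTCF chromatin immunoprecipitation (ChIP-seq) peak list per condition was analysed, with 1 library behind each (a further CTCF replicate of both conditions in the labels was not analysed here), so no replicate error could be given and no test between the conditions was made. All intervals below cover counting error only.

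CTCF is a zinc finger protein that binds a long, GC-rich DNA motif and halts the cohesin complex as it extrudes chromatin loops, so that its sites often lie at loop anchors and at borders between chromatin domains. SETDB1 is a histone methyltransferase that places H3K9me3, a mark of heterochromatin, above all on transposable elements in ESCs. Several families of mouse short interspersed elements carry a CTCF motif and have spread CTCF sites through the rodent genome. The study asked where CTCF binds once SETDB1 and its mark are lost.

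A KO list peak was called shared when at least 1 bp of it overlapped a WT list peak, and KO-only otherwise. WT list peaks that overlapped no KO list peak were called WT-only. KO-only therefore means that no peak was listed in WT cells, not that CTCF was absent there, since the lowest pileup listed for WT cells was 9 fragments. A place where exactly 1 peak of each list overlapped is a paired site, and for paired sites the pileup, the number of fragments stacked at the summit, was compared as a KO to WT ratio. The background behind the lists implied similar depths, 27.38 M fragments for the WT library and 27.56 M for the KO library, and the median paired site of the whole genome had a ratio of 1.36.

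On distal chromosome 5, 1827 KO list peaks were shared and 661 were KO-only, a share of 26.6% (Wilson 95% interval 24.9 to 28.3%), against 28.8% of the whole KO list. WT-only peaks numbered 53 of 1907, a share of 2.78% (2.13 to 3.62%), against 3.22% of the whole WT list. The share of sites found in a single list was thus near that of the genome, slightly lower for KO-only peaks. The 2 shares depended on the lists' lengths and on the overlap asked for. With the KO list cut to the length of the WT list they were 12.1% KO-only and 7.55% WT-only. With a reciprocal overlap of 50% the WT-only share was 15.5%. The pileups differed more from the genome. The median ratio of the 1787 paired sites was 1.42, with quartiles of 1.20 and 1.77, and the summed pileups were 83915 fragments in WT cells and 121985 in KO cells, a ratio of 1.45 (exact 95% interval 1.44 to 1.47) against 1.38 over all paired sites. The KO pileup was at least 2 times the WT pileup at 311 sites, or 17.4%, against 9.39% of all paired sites. It lay below the WT pileup at 112 sites, or 6.27%, against 7.41% of all. The ratio's own interval lay wholly above the genome median at 239 sites, 13.4% against 5.49% of all paired sites, and wholly below it at 44 sites, 2.46% against 2.28%. The local background, the fragments the peak caller allowed for at each site, was itself higher in the KO list by a mean ratio of 1.15 here and 1.14 in the genome.

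The rest of the same chromosome looked different in density. Distal chromosome 5 held 60.7 KO list peaks and 46.5 WT list peaks per Mb, while the part before 110 Mb held 17.7 and 12.8. Before 110 Mb, 582 of 1944 KO list peaks were KO-only (29.9%), the median ratio was 1.37, and 7.60% of paired sites had a ratio of 2 or more. At the edge itself the last KO list peak before 110 Mb had a pileup of 28 and the first one after it 36, and neither was shared. The interval left out held 76 KO list peaks and 56 WT list peaks.

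The sequences at the summits are shown first, because the ratio differed between them. A match to the CTCF motif lay within 50 bp of the summit in 76.3% of the 1827 shared peaks, in 42.8% of the 661 KO-only peaks and in 9.43% (5 of 53) of the WT-only peaks, whereas 1.17% of windows of the same size taken 1 kb away held one. The match was scored with a matrix of 20 bases, a core of 14 with flanks of 3, built from 1000 strong shared peaks elsewhere in the genome and searched on both strands. The 12 core bases found most often at peaks of other chromosomes stood in a small number of recurring settings. The modal letters over 74 bp, the core plus 30 bp on either side, gave the 2 stretches printed here. They were derived on other chromosomes, after the data had been seen. Lower case marks the flanks and capitals mark the core.
stretch 1: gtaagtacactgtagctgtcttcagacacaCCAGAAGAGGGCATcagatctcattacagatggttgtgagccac
stretch 2: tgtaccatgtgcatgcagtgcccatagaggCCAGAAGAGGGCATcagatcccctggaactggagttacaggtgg

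A site was assigned to the closer stretch when at least 55% of the 74 letters matched. Stretch 2 took in 652 KO list peaks of distal chromosome 5, or 26.2% of them, against 12.2% on other chromosomes. Their median identity to the stretch was 67.6%, and 79.1% were soft-masked as repeats in the reference genome. Stretch 1 took in 168 peaks, or 6.75% against 7.50%, with a median identity of 85.1% and 98.8% masked. Per Mb, sites of stretch 2 numbered 15.9 on distal chromosome 5 and 1.85 on the part before 110 Mb, and those of stretch 1 numbered 4.11 and 1.34. No repeat annotation was used, so the stretches are not named as element families.

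The 2 classes differed in what was seen in KO cells. Of the stretch 1 peaks, 89 of 168 were KO-only, 53.0% (45.4 to 60.4%) against 51.9% on other chromosomes, and the 79 paired sites had a median ratio of 1.75, against 1.55 there. Of the stretch 2 peaks, 104 of 652 were KO-only, 16.0% (13.3 to 19.0%) against 19.3% elsewhere, while the 537 paired sites had a median ratio of 1.62, against 1.53. Stretch 1 sites thus more often lacked a listed peak in WT cells, and stretch 2 sites were mostly listed in both and higher in KO cells. These shares make no allowance for the strength of the sites. Paired sites with a motif in another, unmasked setting numbered 663, with a median ratio of 1.33 against 1.34 elsewhere and a KO-only share of 7.34% against 9.77%. Those with a masked core outside both stretches had 1.59 against 1.53. Sites with no motif match had 1.34 against 1.29, and 46.6% of the peaks of that class were KO-only, against 43.1% elsewhere. The classes also differed in strength. The median KO pileup of paired sites was 46 fragments for stretch 1 and 40 for sites with no match, the classes with the highest KO-only shares. It was 74 for stretch 2 and 78 for unmasked cores. How far strength accounts for the KO-only shares was not tested.

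**Figure D1:**
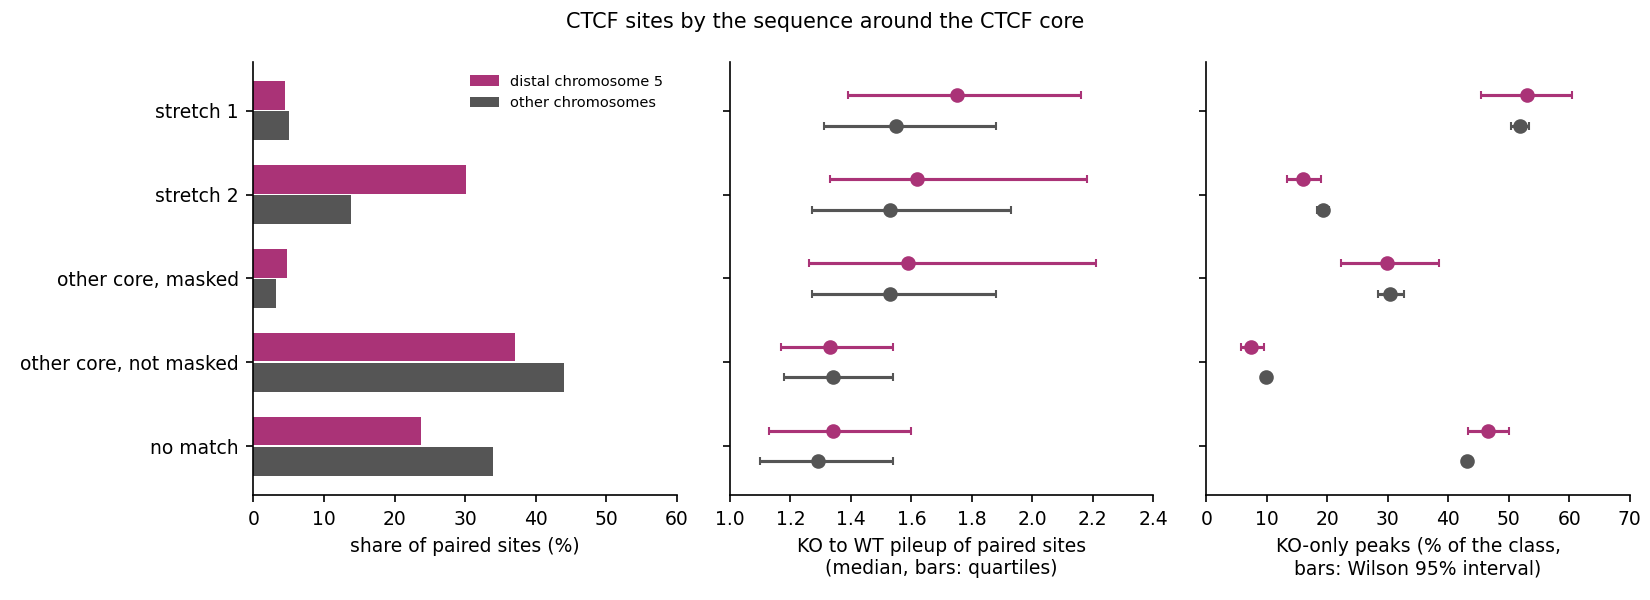
CTCF sites of distal chromosome 5 and of other chromosomes by the sequence around the core: share of paired sites in percent (left), median KO to WT pileup ratio with quartile bars (middle) and share of KO-only peaks in percent with Wilson 95% bars (right). Stretch 2 held 30.1% of paired sites here and 13.8% elsewhere, and unmasked cores had ratios of 1.33 and 1.34.

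Stretch 2 made up 30.1% of the paired sites of distal chromosome 5 and 13.8% of those on other chromosomes. The paired sites close to neither stretch had a median ratio of 1.35 here and 1.33 elsewhere, while those of stretch 1 and stretch 2 differed by more, as given above. How far the larger share of stretch 2 sites accounts for the region's median was not tested. Of the 311 sites with a ratio of 2 or more, 170 belonged to stretch 2 and 29 to stretch 1. Of the 112 sites with the KO pileup below the WT pileup, 19 belonged to stretch 2 and 1 to stretch 1. The last 2 core bases also went with the ratio: paired sites with the core CCAGAAGAGGGCAT had a median of 1.51, those ending in GT 1.90, those ending in AC 1.67 and those ending in GC 1.94. On other chromosomes the same 4 cores had 1.51, 1.56, 1.57 and 1.67.

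**Figure D2:**
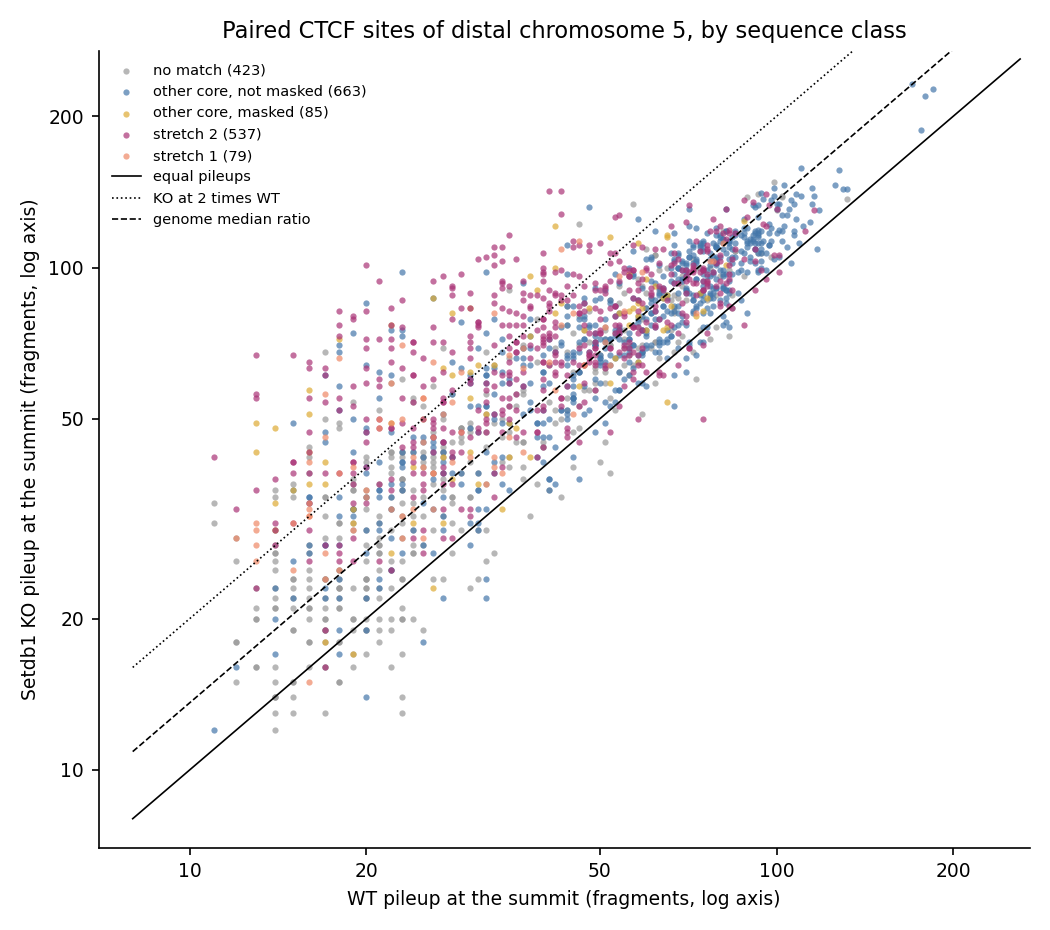
Pileup at the summit in fragments for the 1787 paired sites, WT on the x axis and Setdb1 KO on the y axis, both log axes, coloured by sequence class. Most points lie above the line of equal pileups, and the points above the 2-fold line are mainly stretch 2 sites of low WT pileup.

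The KO-only sites of highest fold enrichment (the pileup over the local background) fell in several classes. Another Caln1 site and one near Medag, both higher in enrichment than the Nptx2 site below, were close to neither stretch. The sites printed here are those of the stretch 2 setting among the highest. They have many changes outside the core and, except at Tmem132c, some within it. They are printed as the reference letters, read along the strand of the core. The TT2 alleles may differ from them.
Tmem132b, intergenic, 71 fragments in KO, chr5:125908586-125908659, plus strand: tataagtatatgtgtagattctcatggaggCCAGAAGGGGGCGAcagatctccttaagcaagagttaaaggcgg
Tmem132c, intron of another transcript, 70 fragments in KO, chr5:126708409-126708482, plus strand: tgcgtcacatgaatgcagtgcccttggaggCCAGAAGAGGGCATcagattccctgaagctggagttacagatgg
Flt1, intron, 79 fragments in KO, chr5:147653645-147653718, minus strand: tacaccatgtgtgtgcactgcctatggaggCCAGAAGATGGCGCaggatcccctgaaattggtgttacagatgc
Caln1, intron, 69 fragments in KO, chr5:130833498-130833571, minus strand: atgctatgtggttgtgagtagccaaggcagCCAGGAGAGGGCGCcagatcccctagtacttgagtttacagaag
Nptx2, intergenic, 67 fragments in KO, chr5:144606340-144606413, plus strand: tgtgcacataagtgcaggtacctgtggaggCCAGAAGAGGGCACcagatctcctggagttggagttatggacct

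These 5 sites matched stretch 2 at 60.8, 83.8, 77.0, 55.4 and 63.5% of positions. The first lies 116 kb from Tmem132b, the second 533 kb from Tmem132c and the last 48.9 kb from Nptx2, which encodes a secreted pentraxin of synapses. The other KO-only peaks were mostly far weaker. Over all 661 the pileup ran from 9 to 84 with a median of 19. Fold enrichment was under 5 in 300 of them and at least 10 in 62, against 752 of the 17209 KO-only peaks of the whole list. Of those 62, 80.6% held a motif match and 69.4% were masked, close to the motif share of 83.7% in shared peaks of the same enrichment but above their masked share of 39.2%. Of the 300 weak ones, 27.3% held a match. Of the 100 KO-only peaks with the highest fold enrichment in the genome, 16 lay on distal chromosome 5, which holds 4.17% of all KO list peaks.

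Of the 12 paired sites with the highest ratios, 10 belonged to stretch 2, while those at Fry (23 and 98 fragments) and near Rimbp2 (20 and 85) had unmasked cores close to neither stretch. Among sites with at least 40 fragments in the libraries together, 17 of the genome's 100 highest ratios lay on distal chromosome 5. Before that cut the region held 1787 of the genome's 41876 paired sites. The sites near Myl10 and Medag and those at B3glct and Flt1 are printed, with the WT pileup before the KO pileup. The first lies 15.6 kb outside Myl10. The second lies 6.83 kb outside Medag, in an intron of another transcript.
Myl10, intergenic, 13 to 67 fragments, chr5:136677534-136677607, minus strand: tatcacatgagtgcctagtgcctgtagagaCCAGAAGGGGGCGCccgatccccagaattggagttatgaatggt
Medag, intron, 20 to 101 fragments, chr5:149404872-149404945, plus strand: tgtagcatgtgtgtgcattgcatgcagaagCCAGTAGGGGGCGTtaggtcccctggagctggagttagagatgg
B3glct, intron, 19 to 80 fragments, chr5:149706398-149706471, plus strand: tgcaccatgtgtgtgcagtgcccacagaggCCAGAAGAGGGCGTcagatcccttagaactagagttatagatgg
Flt1, intron, 13 to 56 fragments, chr5:147692770-147692843, plus strand: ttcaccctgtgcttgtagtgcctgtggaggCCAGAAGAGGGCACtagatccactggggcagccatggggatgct

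Their ratios were 5.15 (2.82 to 10.2), 5.05 (3.10 to 8.62), 4.21 (2.53 to 7.36) and 4.31 (2.33 to 8.59). All 4 intervals lay above the genome median of 1.36 and overlapped each other. The sites were picked for their high ratios, and the intervals make no allowance for that choice. Low ratios were also found at sites of the same stretch, and 2 of these are printed. They were picked for their low ratios, and their intervals make no allowance for that choice either.
Rxfp2, intron, 75 to 50 fragments, chr5:150051962-150052035, plus strand: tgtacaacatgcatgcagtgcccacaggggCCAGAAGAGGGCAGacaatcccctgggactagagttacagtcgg
Slc7a1, promoter of a transcript, 88 to 77 fragments, chr5:148370796-148370869, plus strand: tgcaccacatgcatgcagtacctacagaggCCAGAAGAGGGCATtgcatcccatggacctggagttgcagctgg

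Both matched stretch 2 at 82.4% of positions. The Rxfp2 site had a ratio of 0.667 (0.457 to 0.966), the lowest of the 1699 sites with at least 40 fragments, and the Slc7a1 site had 0.875 (0.636 to 1.20). Both had WT pileups well above those of the Medag and Flt1 sites.

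The strongest sites of the region had unmasked cores close to neither stretch, and their ratios were 1.07 to 1.36.
Nipsnap2, promoter, 185 to 227 fragments, chr5:129724965-129725038, minus strand: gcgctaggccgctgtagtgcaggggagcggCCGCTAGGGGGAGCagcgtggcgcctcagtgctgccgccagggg
Ccdc60, intergenic, 170 to 232 fragments, chr5:116116687-116116760, plus strand: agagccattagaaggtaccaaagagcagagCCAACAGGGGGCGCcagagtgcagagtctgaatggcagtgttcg
Rbm19, intergenic, 179 to 219 fragments, chr5:120102900-120102973, minus strand: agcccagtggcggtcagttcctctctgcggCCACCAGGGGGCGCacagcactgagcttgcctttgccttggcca
Caln1, 3′ of the gene, 176 to 188 fragments, chr5:130853500-130853573, minus strand: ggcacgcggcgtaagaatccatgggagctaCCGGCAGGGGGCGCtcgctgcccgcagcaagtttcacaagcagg

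In the order printed, the ratios were 1.23 (1.01 to 1.50), 1.36 (1.11 to 1.67), 1.22 (1.00 to 1.50) and 1.07 (0.865 to 1.32), so none stood above the genome median beyond counting error. Over the region the ratio was lower at stronger sites: the median was 1.74 at the 242 sites with a WT pileup under 20, 1.60 at 20 to 49, 1.30 at 50 to 99 and 1.17 at the 48 sites with 100 or more. In the whole genome the same classes had 1.54, 1.42, 1.28 and 1.20. The WT pileup is also the denominator of the ratio, which by itself ties low WT pileups to high ratios. Masked paired sites had a median of 1.62 and unmasked ones 1.33, and masked sites were 39.0% of the paired sites here against 24.1% on other chromosomes. A CpG at position 2 of the core, where methylation is known to hinder CTCF, was rare: it was present in 1 of 218 matched sites whose interval lay above the genome median and in 4 of 30 of those below it, against 4.38% of matched shared peaks here and 4.98% in the genome. A CpG at position 12 of the core was present in 112 and in 12 of the same sites, against 44.7% of matched shared peaks here.

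Along the chromosome, 21 windows of 2 Mb were compared, each with at least 28 paired sites. The median ratio lay above that of the genome in 15 of them. The share of all windows of the genome that did so was not taken. The lowest of the 15, at 134 to 136 Mb (1.36), ranked 648 of the genome's 1193 windows with at least 5 paired sites. Among the 279 with at least 50 it ranked 95. The median ratio was highest at 146 to 148 Mb (1.67), 126 to 128 Mb (1.65) and from 150 Mb to the end (1.65). These ranked 1, 2 and 3 among the 279 windows of the genome with at least 50 paired sites. The windows at 148 to 150 Mb (1.53), 130 to 132 Mb (1.50) and 124 to 126 Mb (1.48) ranked 5, 10 and 13 of the 279. Among the 1193 windows with at least 5 paired sites, the 3 highest ranked only 20, 28 and 31. The median ratio was lowest at 110 to 112 Mb (1.25, rank 263 of the 279), 122 to 124 Mb (1.30) and 120 to 122 Mb (1.31). The background ratio ran the same way: it was 1.27, 1.26 and 1.24 in the 3 highest windows and 1.06 and 1.02 at 110 to 112 and 120 to 122 Mb, though 1.19 at 122 to 124 Mb. After division of each pileup by its background the median of the region was 1.39. The part of the background in the window medians was not tested.

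The share of stretch sites also ran with the ratio. Stretch 1 and stretch 2 together made up 28 of 57, 51 of 102 and 43 of 76 paired sites at 146 to 148 Mb, at 126 to 128 Mb and from 150 Mb on, and 5 of 54 at 110 to 112 Mb. Across the 21 windows Pearson's r with the median ratio was 0.84 for the share of stretch sites, -0.70 for GC content and 0.76 for the background ratio. These are descriptions of windows that share both libraries. In 20 of the 21 windows the stretch sites had a higher median than the other sites. The exception was 140 to 142 Mb, with 1.44 against 1.45. At 126 to 128 Mb the other sites reached 1.65 as well, against 1.69 for the stretch sites.

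**Figure D3:**
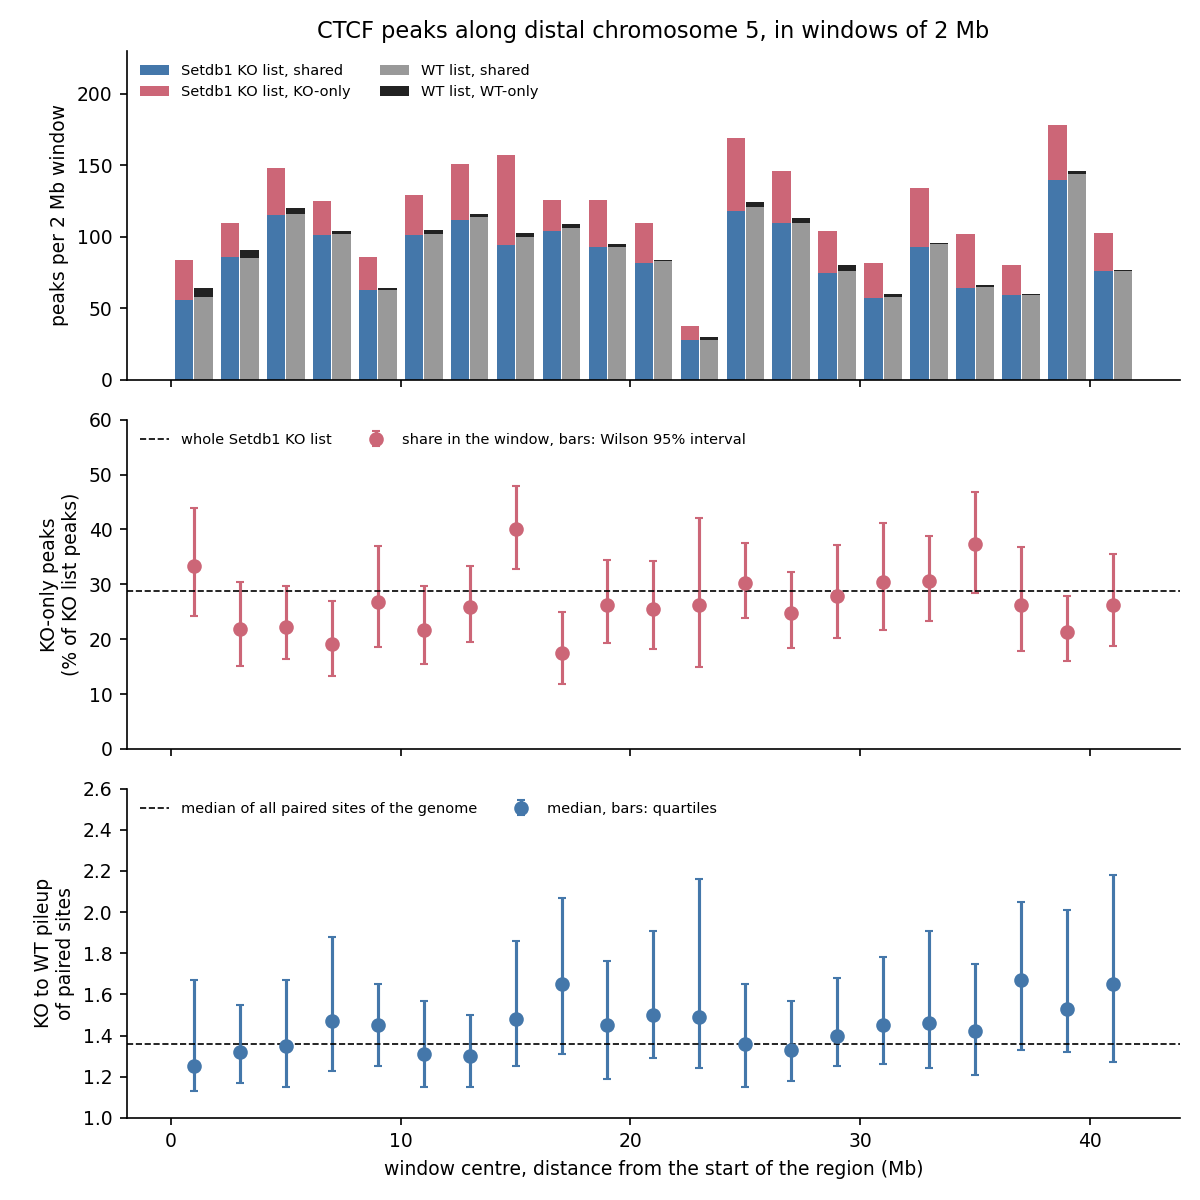
Windows of 2 Mb by distance of the window centre from the start of the region in Mb: peaks per window by class (top), share of KO-only peaks in percent with Wilson 95% bars (middle) and median KO to WT pileup ratio with quartile bars (bottom). The 3 highest median ratios, 1.65 to 1.67, belong to the windows from 126, 146 and 150 Mb, while the KO-only share peaks at 40.1% in the window from 124 Mb.

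KO-only peaks followed another order. Their share was highest at 124 to 126 Mb, with 63 of 157 peaks or 40.1% (32.8 to 47.9%), the only window whose interval lay above the share of the whole list. It ranked 11 among 485 windows with at least 50 KO list peaks, and 242 among 1278 windows with at least 5. Next came 144 to 146 Mb (37.3%) and 110 to 112 Mb (33.3%), both with intervals that held 28.8%. The share was lowest at 126 to 128 Mb (17.5%), 116 to 118 Mb (19.2%) and 148 to 150 Mb (21.3%), and in those 3 windows the interval lay below it. The neighbouring windows from 124 and from 126 Mb, which hold Tmem132b and Tmem132c, therefore had the highest and the lowest KO-only shares. Of the 661 KO-only peaks, 349 stood alone between shared ones. The rest lay in runs: 81 runs held 2 such peaks, 30 held 3, 10 held 4 and 4 held 5. Run lengths in the rest of the genome were not compared, so these are not read as particular to the region. The 4 longest runs lay at Kmt5a, Rilpl2 and Snrnp35, at Nupr1l, Vkorc1l1 and Gusb, near Eif2ak1, and from Zfp655 through Zscan25 to Cyp3a57, with pileups of 12 to 37.

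By gene, 552 protein-coding genes lay in the region, and a peak within 10 kb was assigned to every gene it reached, so neighbouring genes share peaks. A peak of either list lay near 514 of them, a WT-only peak near 54, and 38 had none. For these counts no share over all genes was taken. A KO-only peak lay near 316, or 57.2% against 41.9% of all protein-coding genes, and at least 3 lay near 67, or 12.1% against 5.94%. These shares rise with the number of peaks per gene, and the region was rich in peaks of both lists. Summing the paired sites of each gene, the ratio's interval lay above the genome median for 48 genes of 475, or 10.1% against 4.66% in the genome, below it for 23, or 4.84% against 3.78%, and below 1 for none. In order along the chromosome, the gene with the most KO-only peaks in each window, ties going to the gene with more KO list peaks, was Ttc28 (6 of 13 KO list peaks), 2900026A02Rik (4 of 22), Sppl3 (4 of 6), Taok3 (7 of 21), Fbxw8 (2 of 6), Cux2 (4 of 9), Clip1 (5 of 12), Tmem132b (7 of 24), Tmem132c (2 of 23), Tmem132d (7 of 22), Caln1 (11 of 29), Auts2 (2 of 9), Hip1 (5 of 18), Col26a1 (4 of 17), Prkar1b (4 of 9), Mad1l1 (4 of 8), Sdk1 (3 of 15), Bri3 (5 of 11), Flt1 (6 of 14), Mtus2 (10 of 37) and Fry (13 of 52). Where a gene crosses a window edge, these counts cover its part in the window. Level in KO-only peaks were Hectd4 (4 of 8) with Cux2, Castor2 (5 of 6) with Hip1, Agfg2 (4 of 9), Tfr2 (4 of 5) and Mospd3 (4 of 4) with Col26a1, Gm4869 (4 of 5) with Mad1l1, Mmd2 (3 of 7) and Eif2ak1 (3 of 3) with Sdk1, 2410131K14Rik (2 of 5) with Fbxw8, and Glt1d1 (2 of 18) and Tmem132d (2 of 10) with Tmem132c.

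**Figure D4:**
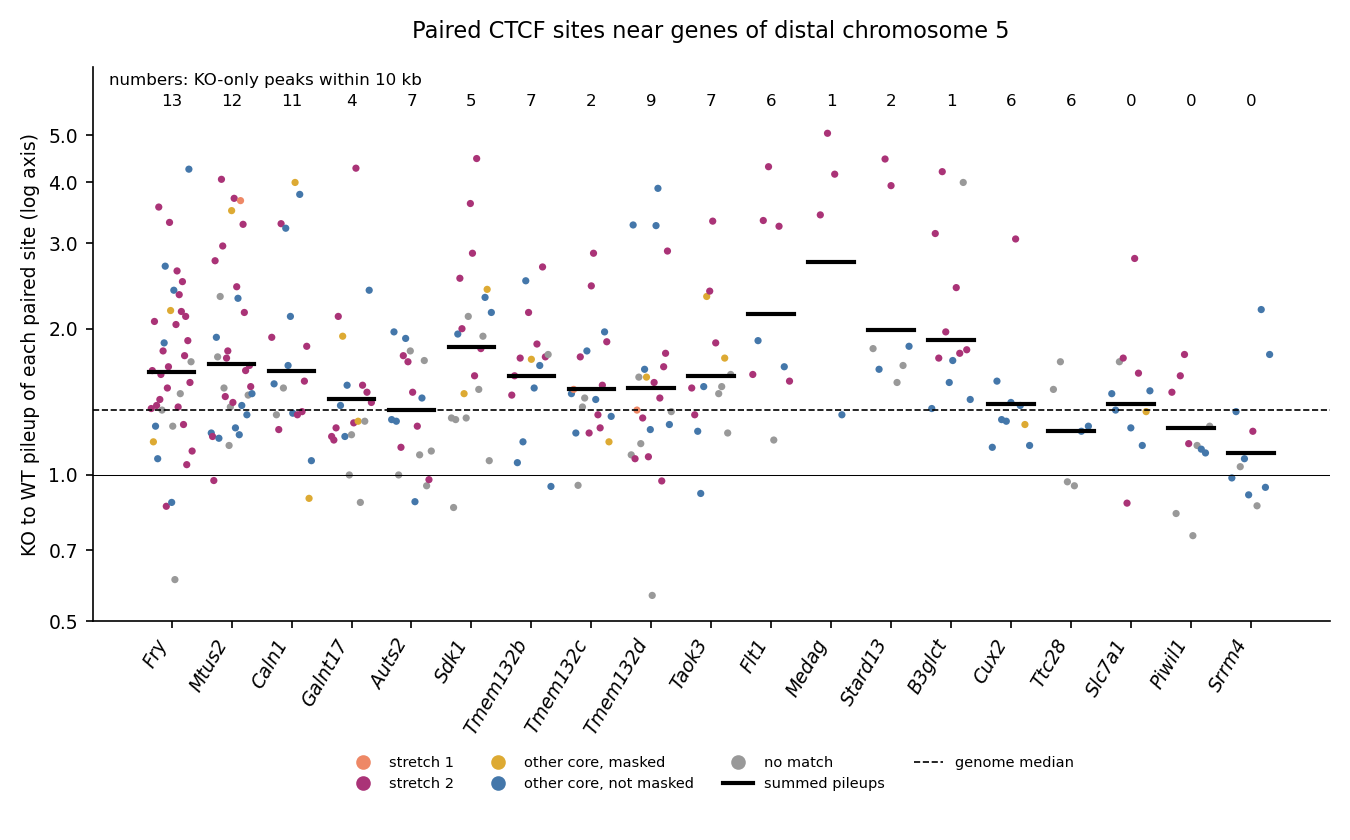
KO to WT pileup ratio (log axis) of each paired site within 10 kb of the genes named on the x axis, coloured by sequence class, with bars for the ratio of summed pileups and the number of KO-only peaks above. Flt1, Medag, Stard13 and B3glct stand highest, while Srrm4, with no KO-only peak, sits at 1.11.

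Flt1 encodes a receptor for vascular endothelial growth factors, spans 164 kb and lies at chr5:147561604-147726011 on the minus strand. All 14 KO list peaks near it lay in introns or just outside the gene. Its 8 paired sites summed to 262 fragments in WT cells and 561 in KO cells, a ratio of 2.14 (1.85 to 2.49). At 3 intronic stretch 2 sites the pileup went from 29 to 97, from 13 to 56 and from 28 to 91, and another stretch 2 site within the gene was KO-only at 79. By contrast, the paired site without a motif match had 17 and 20. The other 5 KO-only peaks were weaker, at 10 to 34.

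Medag, a gene named for a role in adipogenesis, had the highest summed ratio of the genes with at least 3 paired sites, 2.75 (2.23 to 3.42), from 121 to 333 fragments at 4 sites. Of these, 3 were stretch 2 sites in introns of an overlapping transcript 3.86 to 7.79 kb upstream, with 20 and 101, 19 and 79, and 21 and 72 fragments. The site with an unmasked core inside the gene had 61 and 81. Kl, which encodes the membrane protein Klotho, had 137 and 307 fragments at 4 stretch 2 sites (2.24, 1.83 to 2.76), and Atp2a2, the calcium pump of the endoplasmic reticulum, had 114 and 239 at 4 sites (2.10, 1.67 to 2.64). Tpst1, a Golgi tyrosine sulfotransferase, had 189 and 382 at 4 sites (2.02, 1.69 to 2.42).

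Stard13, a GTPase-activating protein, had 235 and 467 fragments (1.99, 1.70 to 2.33) at 7 paired sites. Its highest ratios were at 2 stretch 2 sites, which had 15 and 67 fragments and 16 and 63, while the site of highest WT pileup in the gene had 89 and 138. B3glct, a glucosyltransferase that modifies thrombospondin repeats, showed a broader pattern. All 12 of its paired sites lay above the genome median and the sum went from 565 to 1072 (1.90, 1.71 to 2.10). Its promoter site had 84 and 115, and its stretch 2 sites had WT pileups of 19 to 57 and KO pileups of 71 to 99 beside a site with no match at 17 and 68.

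Caln1, which encodes the neuronal calcium sensor calneuron, had 18 paired sites with 785 and 1288 fragments (1.64, 1.50 to 1.80) and 11 KO-only peaks, all intronic. The KO-only pileups were 17, 18, 24, 29, 34, 38, 53, 66, 68, 69 and 71, against a median KO pileup of 68.0 over all paired sites of the region. They fell in several classes, 5 of them stretch 2. At 6.14 kb past the gene stood its strongest site, with 176 and 188.

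Fry, whose large product is tied to cell shape and mitotic kinases, held the most peaks of any gene in the region, 52 in the KO list. Its 39 paired sites summed to 1810 and 2949 (1.63, 1.54 to 1.73), and its 13 KO-only peaks had pileups of 10 to 32. The 3 sites of highest ratio had 27 and 96, 35 and 116, and 23 and 98 fragments. Its lowest had 23 and 14. Mtus2, a microtubule-associated protein, had 33 paired sites (1393 and 2352, ratio 1.69, 1.58 to 1.81) and 12 KO-only peaks of 15 to 63 fragments, 6 of them stretch 2. The KO-only peaks of Fry were thus weaker than many of those of Mtus2 and Caln1.

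Sdk1, an adhesion molecule of synapses, had 20 paired sites with 729 and 1337 fragments (1.83, 1.67 to 2.01) and 5 KO-only peaks of 14 to 40. Galnt17, a glycosyltransferase gene next to Caln1, had 835 and 1194 (1.43, 1.31 to 1.56) and 4 KO-only peaks among 23 KO list peaks. Auts2, a neurodevelopmental regulator spanning 1106 kb, had 617 and 837 at 18 sites (1.36, 1.22 to 1.51), at the genome median, with 7 KO-only peaks of 12 to 38. The intervals of Sdk1 and Auts2 did not overlap.

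The 3 genes of the TMEM132 family, membrane proteins of neural tissue, stood close together. Tmem132b had 15 paired sites with 802 and 1285 fragments (1.60, 1.47 to 1.75), Tmem132c 19 with 820 and 1229 (1.50, 1.37 to 1.64) and Tmem132d 22 with 876 and 1320 (1.51, 1.38 to 1.64). Those intervals overlapped. KO-only peaks numbered 7, 2 and 9. As a family they held 79 KO list peaks, 18 of them KO-only (22.8%, 14.9 to 33.2%).

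Other genes had many sites and no KO-only peak. Srrm4, a regulator of neural splicing, had 619 and 685 fragments at 10 paired sites (1.11, 0.991 to 1.24), and 5 of those sites had between 0.864 and 1.04. Piwil1, a PIWI protein of the germ line, had 517 and 644 (1.25, 1.11 to 1.40), and Rita1, a small tubulin-binding protein, 634 and 748 (1.18, 1.06 to 1.31). Slc7a1, a transporter of cationic amino acids, had 755 and 1059 at 11 sites (1.40, 1.28 to 1.54), and Cit, a kinase of cytokinesis, 530 and 781 (1.47, 1.32 to 1.65). Med13l (456 and 670), Rxfp2 (435 and 625), Asl (391 and 595), Myo18b (360 and 497) and E130309D02Rik (362 and 526) had ratios of 1.38 to 1.52. Med13l, Asl and E130309D02Rik had 7 KO list peaks, as did Trpv4 (540 and 652, ratio 1.21) and Tmem120b (305 and 414, ratio 1.36), which the alphabetical order of tied genes had left out of the 10.

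The opposite pattern, KO-only peaks with almost no shared site, was seen at Tmed2, a cargo receptor of the early secretory pathway, and at Castor2. Each had 5 KO-only peaks and 1 paired site, with 34 and 46 fragments for Tmed2 and 28 and 42 for Castor2. The KO-only pileups were 15 to 21 at Tmed2 and 16 to 69 at Castor2. Ttc28 had 6 KO-only peaks beside 6 paired sites at 205 and 252 (1.23, 1.02 to 1.49), so there many KO-only peaks went with a low ratio at the paired sites.

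Promoters, taken as 1 kb on either side of an annotated transcript start, held 317 KO list peaks, of which 89 were KO-only, 28.1% (23.4 to 33.3%), against 26.5% of promoter peaks in the whole list. Introns held 1170 (302 KO-only, 25.8%), exons 117 (27 KO-only, 23.1%) and intergenic sequence 884 (243 KO-only, 27.5%). The median ratio was 1.32 at promoters, 1.36 in exons, 1.43 in introns and 1.46 between genes. For promoters of all the genome it was 1.30. At protein-coding promoters the median was 1.25 over 116 sites, against 1.27 in the genome, and 44 of 165 peaks were KO-only (26.7%). A promoter peak was present at 149 protein-coding genes and a KO-only one at 47 of these, or 31.5% against 29.2% in the genome. Promoter sites thus had the lowest median ratio of the 4 places and one near that of promoters elsewhere.

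The 2 protein-coding promoter sites with the highest ratios belonged to stretch 2, and the KO-only promoter site of Zkscan1 to stretch 1.
Ttyh3, start of an internal transcript, 31 to 104 fragments, chr5:140627752-140627825, plus strand: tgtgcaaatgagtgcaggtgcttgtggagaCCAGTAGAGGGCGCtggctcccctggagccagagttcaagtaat
Asl, start of a transcript, 30 to 89 fragments, chr5:130015267-130015340, plus strand: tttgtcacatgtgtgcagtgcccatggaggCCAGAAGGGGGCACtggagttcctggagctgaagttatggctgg
Zkscan1, start of a transcript, 24 fragments in KO, chr5:138091824-138091897, plus strand: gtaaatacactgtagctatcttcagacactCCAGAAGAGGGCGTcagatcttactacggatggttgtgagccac

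The Ttyh3 site, in a gene of the tweety membrane proteins, had a ratio of 3.35 (2.23 to 5.19) and the Asl site, in the gene of argininosuccinate lyase of the urea cycle, 2.97 (1.94 to 4.65). Next came Tctn1 (22 and 59 fragments), Wdr66 (15 and 37), Hcar1 (22 and 49) and Atp5j2 (16 and 33). The Zkscan1 site, in a KRAB zinc finger gene, matched stretch 1 at 90.5% of positions. KO-only promoter peaks were weak throughout. The 3 of highest fold enrichment had 30 fragments at Ankle2, 26 at Eif2ak1 and 24 at Zkscan1, followed by Cdk2ap1 (25), Sdsl (26), Prkab1 (20), Lat2 (19), Ankrd61 (25), Sbds (29), Fam220a (29), Srrm3 (22) and Alox5ap (22). Besides Slc7a1, the promoter sites lower in KO cells included Dhx37 (30 and 23 fragments), Ache (24 and 20) and Suds3 (83 and 76), and the interval of each of these 4 held 1.

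WT-only peaks were few and weak. The highest lay in an exon of Kdelr2, a receptor that returns proteins to the endoplasmic reticulum, with 29 fragments. Next came sites at Tmem132d (25 and 23), 229 kb from Castor2 (22), near Sez6l (19) and near Sfswap (19). None of the 53 had a fold enrichment of 10 or more. The Kdelr2 window, printed along the plus strand around its summit, held no motif match.
Kdelr2, exon, 29 fragments in WT, chr5:143418113-143418186, plus strand: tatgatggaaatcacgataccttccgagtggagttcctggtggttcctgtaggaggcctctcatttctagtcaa

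The 112 sites lower in KO cells had a median WT pileup of 41.0, near the 43.0 of all paired sites of the region. After the Rxfp2 site, the lowest ratios among sites with at least 40 fragments were at Myo18b (32 and 22), near Med13l (25 and 18), near Srrm4 (23 and 17), at Clip1 (32 and 24), at Piwil1 (52 and 39), near Gm26897 (25 and 19) and at the Dhx37 promoter. Of these 8 sites, only that of Rxfp2 had an interval that did not hold 1.

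Lists of genes with related roles were described by their peaks within 10 kb, with no test. The ratio was lower at stronger sites, as given above, and the lists were not matched for strength. The part of strength in their ratios was not tested. The DNA replication and repair genes had the highest KO-only share among lists of more than 10 peaks, 12 of 25 (48.0%, 30.0 to 66.5%). Of the 12, 4 lay near Brca2, which acts in recombination repair, with 14 to 31 fragments, 2 each near Rfc2 and Chek2, and 1 near Rad9b. The zinc finger genes had 15 of 39 (38.5%, 24.9 to 54.1%), with a summed ratio of 1.57 (1.43 to 1.73). Zkscan1 and Zscan21 held 3 KO-only peaks each, and Zfp853 had none of 6.

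The neural genes of long span held 375 KO list peaks, 84 of them KO-only (22.4%, 18.5 to 26.9%), and a summed ratio of 1.54 (1.50 to 1.57). The cell surface receptor and growth factor genes had 19 of 79 (24.1%) and 1.53 (1.46 to 1.60), in which Flt1 has a large part. Scarb1, the receptor for high-density lipoprotein, had 366 and 598 fragments (1.63, 1.43 to 1.87), and Epo, the gene of erythropoietin, 304 and 426 (1.40, 1.21 to 1.63). Both lists lay above the 1.38 of all paired sites in ratio. Their KO-only shares lay below 28.8%, for the receptor list within its interval (16.0 to 34.5%).

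The chromatin and cohesin genes stood lower, with 23 of 100 KO-only (23.0%) and a summed ratio of 1.25 (1.20 to 1.30). Trrap, a subunit of histone acetyltransferase complexes, had 344 and 452 (1.31, 1.14 to 1.52) and Kdm2b, a histone demethylase that binds CpG islands, 382 and 450 (1.18, 1.03 to 1.35). Pluripotency and germline genes had 2 of 25 KO-only (lower bound of the share 2.22%) and 1.20 (1.11 to 1.29). Here Tbx3, a T-box factor of naive ESCs, had 145 and 183 fragments, Msi1, an RNA-binding protein of stem cells, 247 and 276, and Fkbp6, needed in meiosis, 155 and 164. Piwil1 belongs to both lists.

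The Williams syndrome region, the interval whose human counterpart is deleted in that disorder, had 18 of 74 KO-only (24.3%) and a summed ratio of 1.36 (1.30 to 1.43). Clip2 had 527 and 749 (1.42, 1.27 to 1.59), Mlxipl 167 and 251 (1.50, 1.23 to 1.84), Limk1 260 and 334 (1.28, 1.09 to 1.52) and Baz1b 254 and 309 (1.22, 1.03 to 1.44). The homeobox, T-box and forkhead factors had 12 of 41 (29.3%) and 1.37 (1.28 to 1.46), with 6 of the KO-only peaks at Cux2. Cux2, a homeobox factor of upper-layer neurons, had 654 and 917 (1.40, 1.27 to 1.55), and its relative Cux1 350 and 487 (1.39, 1.21 to 1.60). The ARP2/3, actin and Rac genes had 10 of 39 (25.6%) and 1.43 (1.33 to 1.53), with Wasf3 at 334 and 571 (1.71, 1.49 to 1.96).

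**Figure D5:**
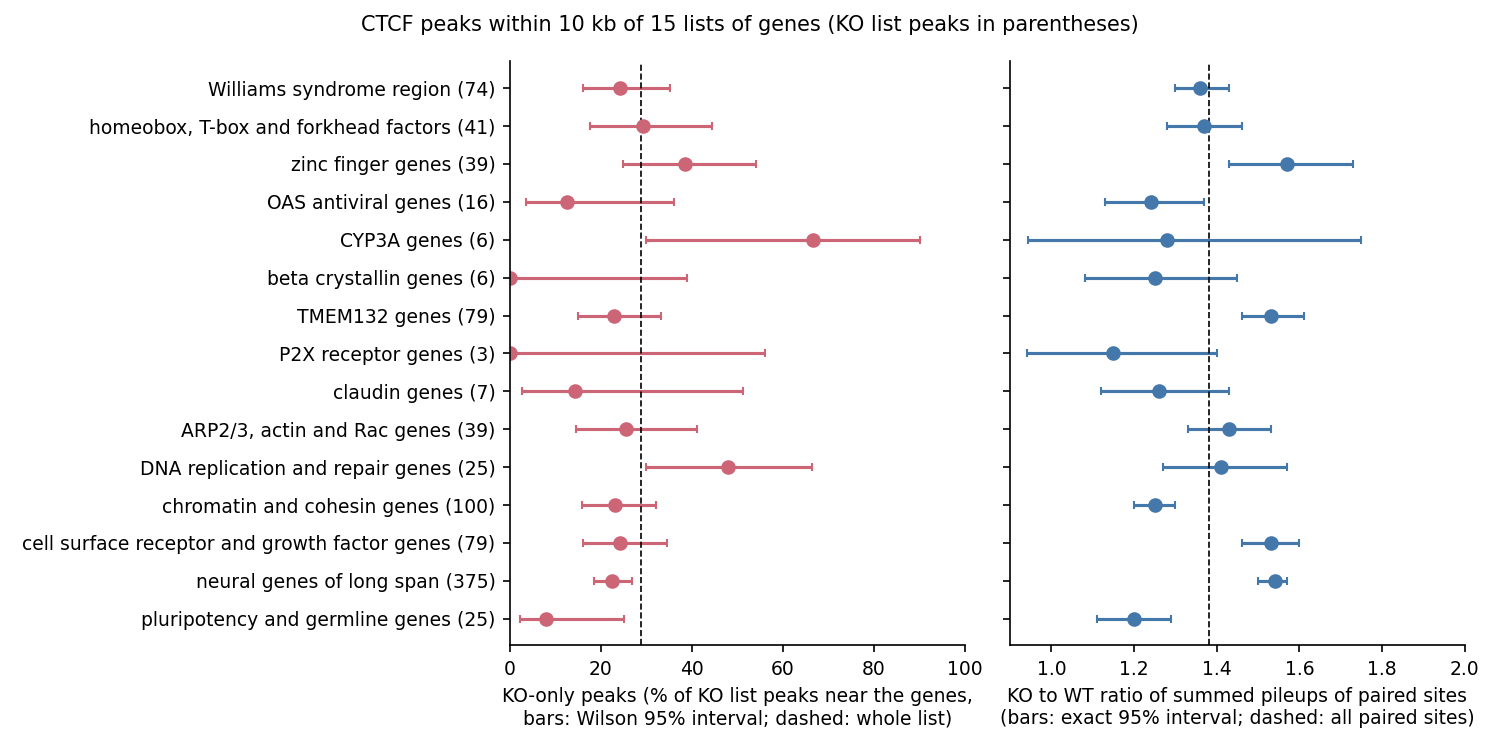
Share of KO-only peaks in percent with Wilson 95% bars (left) and KO to WT ratio of summed pileups with exact 95% bars (right) for peaks within 10 kb of 15 gene lists, with dashed lines for all peaks. The neural, receptor, TMEM132 and zinc finger lists lie above 1.38 in ratio, and the chromatin and pluripotency lists below it.

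The clustered families were small. The OAS antiviral genes, sensors of double-stranded RNA, had 2 of 16 KO-only (12.5%) and a summed ratio of 1.24 (1.13 to 1.37). The CYP3A genes, drug-metabolizing cytochromes, had peaks near 3 of 9 members and 4 of 6 were KO-only, 2 of these at Cyp3a13 and 1 each at Cyp3a44 and Cyp3a57. The beta crystallin genes of the lens had none of 6 and 1.25 (1.08 to 1.45). The P2X receptor genes had none of 3, all near P2rx4 (189 and 217 fragments), and the claudin genes had 1 of 7, at the Cldn3 promoter, and 1.26 (1.12 to 1.43). With so few peaks the intervals of these families were wide, and those of the KO-only shares, CYP3A aside, held 28.8%. As only uniquely mapped reads were kept, near-identical gene copies and repeats could go unseen in both lists.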

How the data were processed

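CTCF ChIP-seq peaks were analysed for WT and Setdb1 KO TT2 ESCs, 1 list for each. Per the study's methods and the submitters' processing notes, the authors aligned 75 bp reads to mm10 with Bowtie 1.2, kept unique alignments with up to 3 mismatches, removed duplicates with Picard and called peaks against input with MACS2 2.1.0 at a q-value of 0.05. The deposited lists give fold enrichment, the ratio of summit pileup to background with 1 added to each, −log10 p and −log10 q values, and a score. The score was not used.

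The whole-number pileup and the background of all peaks were solved from the deposited fold enrichment and −log10 p with a tolerance of 0.001, and the same steps were checked on simulated peaks. Fragments of 186 bp (WT) and 193 bp (KO) were implied. Wilson intervals were given for shares and exact Clopper-Pearson intervals at 95% for pileup ratios. Gene positions came from GENCODE M21 and sequences from the RefSeq GRCm38.p6 genome. Python 3.11.15, pandas 2.3.3, numpy 2.4.6, scipy 1.17.1 and matplotlib 3.10.9 were used.

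Sites were named by rank: the 15 KO-only and 6 WT-only peaks of highest fold enrichment, the 12 highest and 8 lowest ratios among sites with at least 40 fragments, the 12 KO-only protein-coding promoter peaks of highest fold enrichment, the 6 highest and 4 lowest promoter ratios, the 6 strongest sites, the leading protein-coding gene of each 2 Mb window, the 4 genes richest in KO list peaks from every one of 15 lists, and the 10 genes richest in peaks without a KO-only one. The genes with at least 3 paired sites and the highest ratios, those richest in KO-only peaks, the neighbouring and tied genes described beside them and the 2 sequence stretches were added after their values were seen. The members and lists were chosen with earlier results of these data known.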

Additional observations from a re-analysis of the deposited data

How the results depend on the processing

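The share of peaks found in a single list depended on how overlap and thresholds were set. Asking for a reciprocal overlap of 50% gave 35.2% KO-only and 15.5% WT-only peaks and a median ratio of 1.39. Summits within 100 bp gave 5.93% WT-only. Keeping peaks with −log10 q of at least 5 gave 24.6% and 1.79%, and a fold enrichment of at least 5 gave 24.5% and 1.57%. Cutting the KO list to the length of the WT list by −log10 q gave 12.1% KO-only and 7.55% WT-only, because fewer KO peaks were kept. Dividing each pileup by its background gave a median ratio of 1.39, which was 1.07 times that of the rest of the genome instead of 1.05. The median ratio stayed above that of the rest of the genome in every setting where the 2 were compared. The genome's KO-only and WT-only shares were not recomputed under these settings, so the region's shares cannot be placed against them. The other alternatives (edges at 100 and 120 Mb, the interval kept in, other promoter widths, windows of 1 and 5 Mb) moved no value by more than its spread. A minimum identity of 50 or 65%, chosen after seeing the data, gave 608 or 318 of the 1787 paired sites to stretch 2, with median ratios of 1.61 and 1.64. At 65% the share was 17.8%, against 8.16% elsewhere, and the sites close to neither stretch had a median of 1.38, against 1.34. No paired analysis was possible because 1 CTCF library per condition was analysed, and the second one in the labels was not analysed here. For the same reason a difference between conditions cannot be told apart from a difference between libraries.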
